A study of Caenorhabditis elegans with 51 samples.

Results

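The homeobox genes of Caenorhabditis elegans that carry the name ceh (C. elegans homeobox) were followed in hand-dissected pieces of embryos at about the 100-cell stage. All gene names that start with ceh- were taken from the gene tables of the libraries, except ceh-13, ceh-22, ceh-34 and ceh-51, which left 42 of 46 such names among 31383 listed genes. The rule uses names alone. Of the 42 genes, 39 could be matched by name to an identifier of the current annotation, and ceh-26, ceh-44 and ceh-52 are used under the names of the files.

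Single embryos were taken apart by aspiration under a microscope, with a fluorescent reporter showing the cells to remove. The MS dissections used a strain with pCEH-51::mNG and gave MS+ (descendants of the MS blastomere) and MS- (the rest of the embryo). The D dissections used a strain with pFKH-2::mNG and gave D+ and D- in the same way. The C dissections used a strain with pR02D3.1::mKate2;pHLH-1::mNG and gave 3 libraries from each embryo, C-in (Cxp cells), C-out (Cxa cells) and C- (the rest). Each group therefore rests on 1 reporter strain. The groups of 1 dissection share strain and embryos, while between the MS, D and C dissections lineage, strain and dissection cannot be told apart. Samples of 19 accepted embryos gave 43 libraries, 7 each for MS+, MS-, D+ and D- and 5 each for C-in, C-out and C-. A replicate number shared between groups of 1 dissection was taken to name 1 embryo. Both the number of cells and their kind differ between a dissected lineage and the rest of the embryo, so fewer cells of a type and less RNA per cell cannot be told apart in any of these values.

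A homeobox encodes the homeodomain, a fold that binds DNA, and most homeodomain proteins are transcription factors that set regional or cell identity. The proteins fall into classes named after their relatives in other animals. Some SINE, engrailed, Distal-less and OTX proteins are known from the head, the nervous system or the epidermis, though not from these alone. TALE proteins of the PBC type are partners of Hox proteins, and CUT proteins carry extra DNA-binding CUT domains. In the worm embryo the MS blastomere makes pharynx and body wall muscle, D makes only body wall muscle, and C makes posterior epidermis and body wall muscle, with Cxp giving muscle and Cxa epidermis. Most neurons and the anterior epidermis come from the AB blastomere, whose descendants by design stay in the rest of the embryo in each dissection. Among the 42 genes, 14 were assigned to the NK-like group, 7 to the PRD-like group, 7 to the CUT class, 3 to TALE, 2 each to SINE and POU, and 1 each to the LIM, PROS and HOX-like groups, while 4 divergent genes were left without a class.

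The depth was between 416394 and 3054633 reads on genes per library, and a gene without a read could still have held 3 reads, or 0.982 to 7.2 CPM (counting error only). The levels below are RPKM, that is, reads scaled to the length of the gene and to the depth of the library. A gene is called on in a group where its median over the libraries was above 25 RPKM, the detection limit of the study. Libraries of 1 group differed strongly, with a median correlation across genes of 0.44 in MS+ and 0.40 in D+ against 0.63 in MS- and 0.59 in D- (genes are not independent replicates).

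A few libraries stood apart from their groups, and they bear on many of the ceh genes. The library labelled C-out replicate 1 had 5330 genes above 25 RPKM while the other C-out libraries had 1550 to 2708, and 19 ceh genes above that limit while the others had 1 to 3. In it R02D3.1, the gene behind the red C reporter, stood at 73.9 RPKM, and it was between 1020 and 3861 RPKM in the other C-out libraries. Of the 4 markers of AB neural precursors, 4 were above 25 RPKM there and at most 1 in the other C-out libraries. The library labelled D- replicate 8 had 2272 genes above 25 RPKM, against 4024 to 5131 in the other D- libraries, and 3 ceh genes against 10 to 17. It had 0 of the 4 AB neural markers above 25 RPKM, against 2 to 4 in the other D- libraries. The partner of D- 8, labelled D+ replicate 8, held fkh-2 at 2.35 RPKM and hlh-1 at 7.11 RPKM. Its 3 muscle markers summed to 64.3 RPKM against 1627 to 7387 in the other D+ libraries, and R02D3.1 was at 2061 RPKM. In MS+ the reporter gene ceh-51 ranged from 8.44 to 2445 RPKM with a median of 444, and in MS- from 1.73 to 352 with a median of 67.9, so these ranges overlapped. For the tests of the ceh genes that use C-out 1 or the D 8 libraries, the outcome without them is given beside the counts of calls, and the values of other homeobox genes are given with all libraries only.

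**Figure D1:**
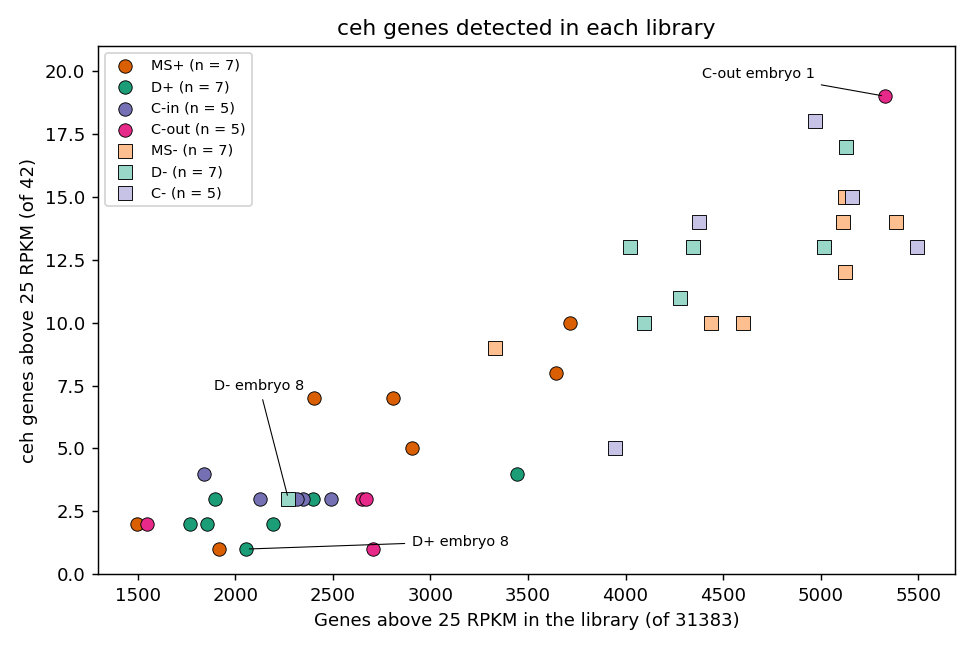
The vertical axis gives the number of the 42 ceh genes above 25 RPKM in each of the 43 libraries and the horizontal axis the number of all genes above that limit, with circles for dissected lineages and squares for rests of embryos. C-out embryo 1 lies at 19 ceh genes among the rest-of-embryo libraries, and D- embryo 8 lies at 3 ceh genes among the dissected lineages.

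At least 1 of the 7 groups had each of 15 ceh genes on, which is 35.7% of the 42, beside 18.3% of all listed genes. Every one of these 15 was on in at least 1 rest-of-embryo group, 8 were also on in a dissected lineage, and 7 were on in rests only. The rests held 11 (MS-), 11 (D-) and 12 (C-) ceh genes, or 26.2%, 26.2% and 28.6% of the 42, while 14.9%, 12.8% and 14.8% of all genes were on there. The MS cells came next with 5 genes (11.9%, against 6.98% of all genes), namely ceh-27, ceh-36, ceh-37, ceh-38 and ceh-40. In C-in 3 genes were on (ceh-20, ceh-21 and ceh-38), in C-out 3 (ceh-20, ceh-38 and ceh-43) and in D+ 2 (ceh-20 and ceh-38). These shares of 7.14%, 7.14% and 4.76% lay beside 5.62%, 7.68% and 5.15% of all genes. One gene, ceh-38, was on in all 7 groups. With a median of at least 10 reads in place of 25 RPKM, 23 ceh genes counted as on in C-, 15 in MS- and 16 in D- (54.8%, 35.7% and 38.1% of the 42, beside 20.9%, 21.0% and 18.8% of all genes), and leaving out 1 C- library gave 11 to 15 on in C- at 25 RPKM. Without the C-out 1 library, 3 genes were on in C-out, and without embryo 8 the counts in D+ and D- stayed at 2 and 11. Taking the mean in place of the median raised the counts of the dissected lineages, from 5 to 9 in MS+, from 2 to 6 in D+, from 3 to 7 in C-in and from 3 to 10 in C-out, since single libraries with high values carry the mean. In C-out the doubted library C-out 1 carries several of these means. Without it the mean fell from 91.5 to 6.76 RPKM for ceh-27, from 49.5 to 0.33 for ceh-31 and from 38.6 to 3.08 for ceh-32. That of ceh-16 did not fall (48.7 with and 49.8 without).

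**Figure D2:**
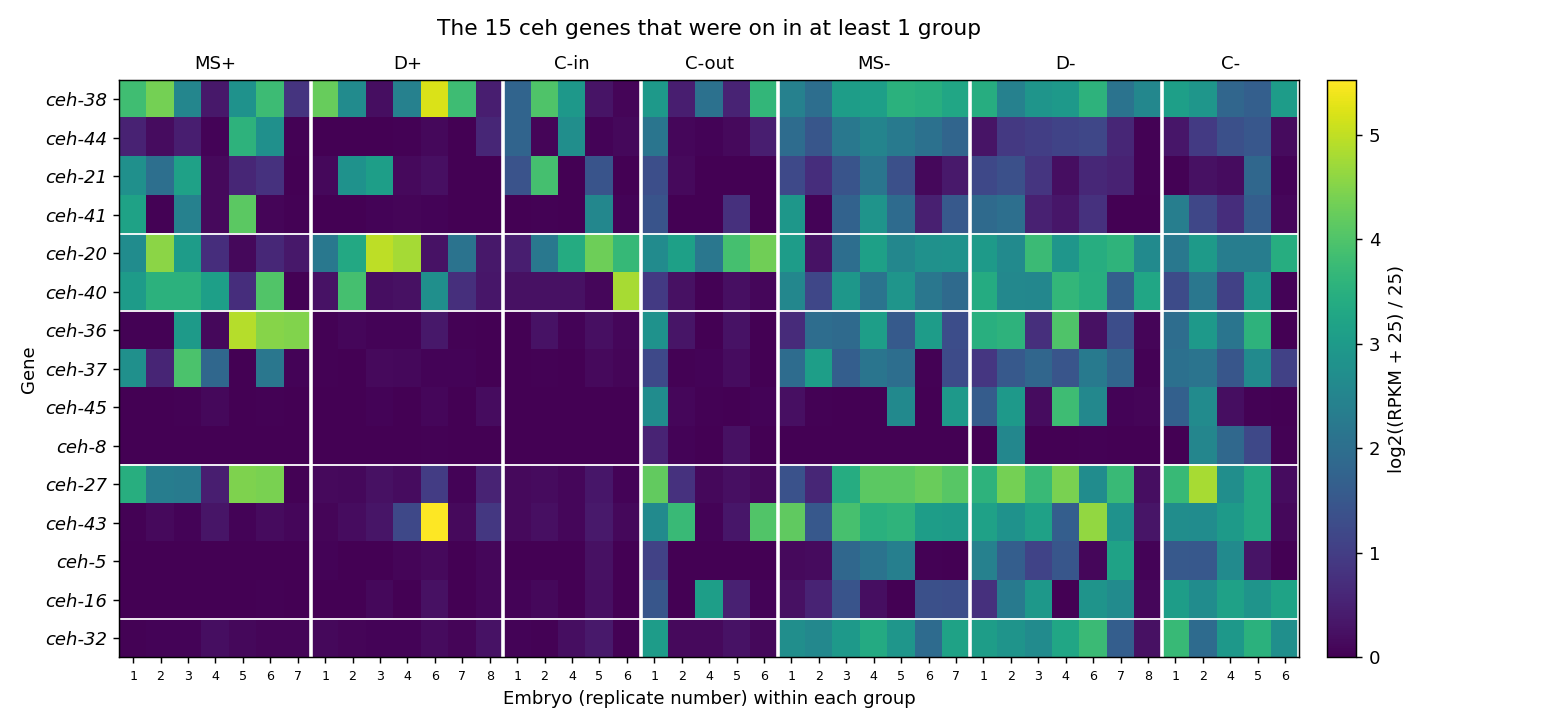
Each row is 1 of the 15 ceh genes that were on in at least 1 group and each column 1 library, numbered by embryo within its group, with the colour giving log2((RPKM + 25) / 25). White lines separate the groups and the classes (from the top CUT, TALE, PRD-like, NK-like and SINE). The rows of ceh-32 and of ceh-43 in MS+ are dark in all 7 libraries, and column 1 of C-out resembles the columns of the rests.

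The CUT gene ceh-38 was, with ceh-20, the most widely detected of the 42. CEH-38 is a ONECUT protein, and its transcript was above 25 RPKM in 35 of the 43 libraries and had reads in all of them. In MS+ ceh-38 ranged from 6.88 to 487 RPKM (median 150), in MS- from 74.6 to 263 (median 192), in D+ from 3.67 to 904 (median 133) and in D- from 82.5 to 270 (median 158). The C-in libraries held 60.2, 375, 167, 5.77 and 1.21 RPKM, the C-out libraries 172, 9.24, 79.1, 11.8 and 291, and the C- libraries 190, 163, 63.3, 55.1 and 182. The dissected groups spanned the levels of the rests and reached both above and below them, and the groups overlapped in every comparison. ceh-38 shares 26 exon bases with tra-2 on the opposite strand, which is 0.905% of its exons.

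Other CUT genes were patchy. The ONECUT gene ceh-21 was on in MS- (median 32.7 RPKM) and C-in (median 41.8), where its values were 41.8, 346, 0, 42.9 and 0 RPKM, and it reached 199 RPKM in MS+ and 189 RPKM in D+ although most libraries of those groups were low. The ONECUT gene ceh-41 was on in MS- (median 58.7 RPKM) and C- (median 31.5), and in MS+ its median was 2.51 RPKM while its highest library was at 413 RPKM. The CUX-type gene ceh-44 was on in MS- alone, where all 7 libraries were between 44.2 and 115 RPKM, and its medians were 22.2 in D- and 22.6 in C-. In the dissected lineages these patterns are of single libraries rather than of whole groups. ceh-44 was at 274 and 146 RPKM in MS+ 5 and 6 and at 60.6 and 139 RPKM in C-in 1 and 4. It was at 85.7 RPKM in C-out 1 and at 12.5 RPKM or less in every other dissected library.

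In the annotation ceh-41, ceh-21 and ceh-39, all ONECUT genes, follow one another on chromosome X with gaps of 0.1 and 1.1 kb. The libraries with these genes overlapped in part. ceh-21 was above 25 RPKM in 16 libraries and ceh-41 in 15, of which 11 were shared. ceh-39, an X-linked signal element that takes part in counting X chromosomes during sex determination, was above it in 10 libraries and on in no group, with its highest value of 173 RPKM in C-in 6. Of these 10 libraries 5 also held ceh-21 and 8 held ceh-41 above the limit.

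Of the 3 TALE genes, ceh-20 and ceh-40 were on and ceh-60 had 1 read in all. CEH-20 and CEH-40 are the PBC-type proteins (relatives of Extradenticle and Pbx) that act with Hox proteins and with the TALE protein UNC-62, and they are known to be partly redundant in the embryo. ceh-20 was on in every group but MS+. Its values in MS+ were 2.08 to 568 RPKM with a median of 16.3, and in MS- 5.21 to 195 with a median of 149. In D+ it ranged from 4.96 to 763 RPKM (median 91.2) and in D- from 132 to 314 (median 176). The C-in libraries held 9.66, 90.9, 238, 470 and 301 RPKM, the C-out libraries 133, 195, 88.5, 346 and 476, and the C- libraries 89.9, 177, 101, 101 and 246. C-out was the only dissected lineage in which all libraries had ceh-20 above 25 RPKM, and its edgeR difference from C- was 1.37 on the log2 scale (SE 0.95, adjusted p = 0.71), within the spread of the libraries.

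ceh-40 had another distribution. It was on in MS+ (0.51 to 383 RPKM, median 191), where 5 of 7 libraries were above 25 RPKM, and in MS- (31.2 to 165, median 89.0), in D- (55.1 to 288, median 217) and in C- (34.6, 88.3, 27.4, 161 and 0.89 RPKM). In D+ its range was 3.91 to 347 RPKM and its median 6.37. In C-in the 5 libraries held 4.88, 4.69, 4.55, 1.58 and 675 RPKM and in C-out 22.6, 4.78, 0.47, 4.17 and 1.87, so that 1 library of these 10 was above the limit. The medians of ceh-40 thus put MS+ with the rests and D+ and both C lineages below the limit, while the ranges of MS+, D+ and C-in overlapped.

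The PRD-like genes ceh-36 and ceh-37 are OTX-type genes that lie 10.8 kb apart on chromosome X. CEH-36 is known for its part in the identity of the AWC and ASE sensory neurons and in progenitors that give rise to several cell types, and CEH-37 for the AWB neuron and for binding to telomeres. In MS+ the values of ceh-36 formed a low and a high set with none between: 0.59, 0.61 and 2.08 RPKM in embryos 1, 2 and 4, and 175, 719, 550 and 531 RPKM in embryos 3, 5, 6 and 7. In MS- it ranged from 14.9 to 187 RPKM (median 69.4). The 4 high MS+ libraries lay above the MS- library of their own embryo and the 3 low ones below it. In D+ no library exceeded 6.77 RPKM (median 0.83), while D- ranged from 1.2 to 378 (median 36.6). The C-in libraries were at 5.25 RPKM or less and the C-out libraries at 6.12 or less apart from C-out 1 with 150. The C- libraries held 73.8, 170, 86.1, 272 and 0 RPKM.

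For ceh-37 the 7 MS+ values were 0 to 362 RPKM with a median of 64.4, and the MS- values 0.58 to 188 with a median of 71.5, so the MS groups covered the same range. D+ had at most 2.69 RPKM (median 0.83) and D- 0.39 to 96.3 (median 47.3). In C-in the values were 0, 0.48, 0, 2.60 and 1.19 RPKM, in C-out 33.3, 0.56, 0.78, 3.44 and 0, and in C- 78.2, 84.5, 44.9, 130 and 27.1. Markers of the gut were high in some of the same MS+ libraries. Of the 4 gut markers (end-1, end-3, elt-2 and elt-7), 3 were above 25 RPKM in MS+ 3, which held the highest ceh-37 (362 RPKM) with elt-7 at 1761, end-1 at 869 and elt-2 at 77.1 RPKM, while end-3 was at 0 in all MS+ libraries. elt-7 was at 2950 RPKM in MS+ 4, at 73.6 RPKM in MS+ 6 and at 16.5 RPKM or less in the other 4, and the 4 markers summed to 6.43 to 2964 RPKM in MS+ and to 236.7 to 1780 in MS-. The part of gut cells in the ceh-37 values of MS+ was not tested. Of the 19 libraries with ceh-36 above 25 RPKM, 15 also had ceh-37 above it, and ceh-37 was above it in 21.

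The other PRD-like genes that were on, ceh-45 and ceh-8, had no dissected-lineage library above 25 RPKM other than C-out 1 for ceh-45 (135 RPKM). ceh-45, a relative of goosecoid, was on in D-, where its values ranged from 1.03 to 322 RPKM with a median of 51.6, and the C- libraries held 56.4, 134, 3.93, 0.52 and 0 RPKM. In MS- it was at 129 and 170 RPKM in embryos 5 and 7 and at 4.06 RPKM or less in the other 5. ceh-8, a relative of the retinal homeobox gene Rx, was on in C- alone, with 0, 120, 65.5, 32.5 and 0.49 RPKM, and had 0 reads in all 14 MS libraries. In the D dissections it was at 123 RPKM in D- 2 and at 0.73 RPKM or less in the other 13 libraries.

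**Figure D3:**
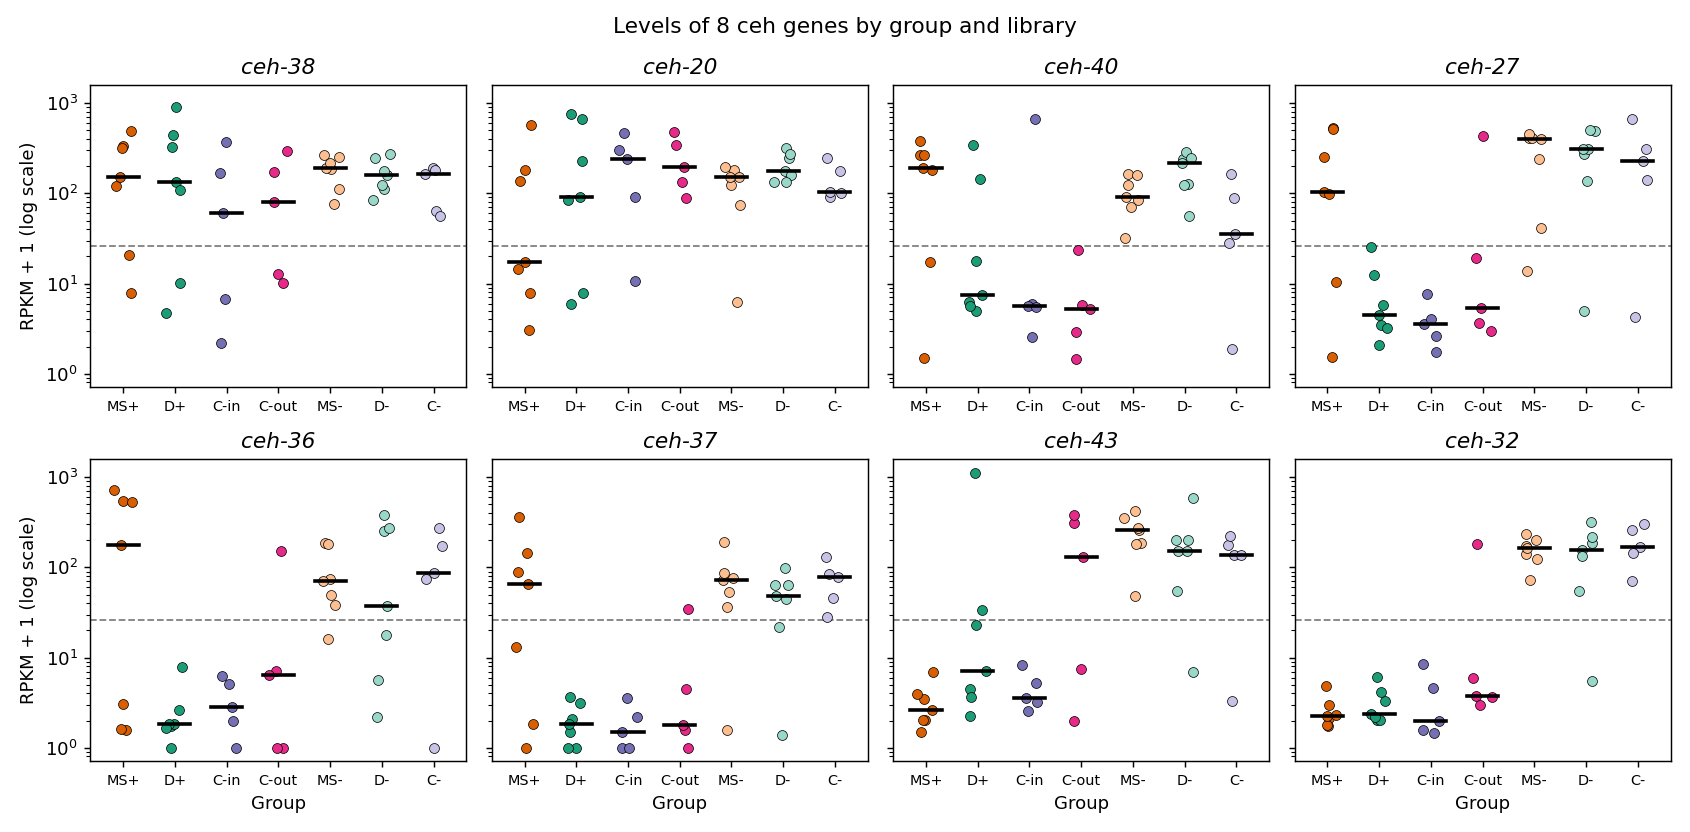
RPKM + 1 of 8 ceh genes is plotted on a log scale, with each dot a library, the bar the median of the group and the dashed line the limit of 25 RPKM. Dissected lineages are on the left and rests of embryos on the right of each panel. ceh-32 lies below the limit in all dissected libraries but C-out 1, while ceh-38 and ceh-20 reach above it in every dissected lineage.

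Among the 14 NK-like genes, ceh-27, ceh-43, ceh-16 and ceh-5 were on. ceh-27, an NK-type gene, was at 0.54 to 524 RPKM in MS+ (median 101) and at 12.6 to 455 in MS- (median 402), with 5 of the 7 MS+ libraries above 25 RPKM. In D+ its highest library had 24.4 RPKM (median 3.46), while D- ranged from 3.96 to 509 (median 308). The C-in libraries held 2.57, 3.09, 1.6, 6.65 and 0.76 RPKM, the C-out libraries 430, 18, 2, 4.4 and 2.62, and the C- libraries 307, 674, 140, 228 and 3.28. ceh-27 was thus high in MS cells and in all rests, and below the limit in every D+ and C-in library.

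ceh-43 is the worm Distal-less gene, known from the anterior epidermis and from dopaminergic neurons. In MS+ it was between 0.48 and 5.92 RPKM (median 1.60) and in MS- between 47.1 and 425 (median 261), with no overlap. In D+ it was at 1122 RPKM in embryo 6, at 32.7 RPKM in embryo 4 and at 21.8 RPKM or less in the other 5, while D- ranged from 5.85 to 592 (median 151). Both D+ libraries above the limit held other genes that were low in most other D+ libraries. D+ 6 had pax-3 at 768, nob-1 at 731 and cog-1 at 465 RPKM, against at most 25.98 RPKM for each in the other 6, and its 4 epidermal markers (elt-1, elt-3, lin-26 and nhr-25) were at 11.6 RPKM or less. D+ 4 had the germline marker nos-2 at 958 RPKM, with xnd-1 and pgl-1 at 0.91 and 0.63 RPKM, and 2 of the 4 epidermal markers above 25 RPKM (elt-1 at 161 and lin-26 at 95.3). In D+ 8, where ceh-43 was at 21.8 RPKM, lin-26 stood at 602 RPKM and 3 of the 4 epidermal markers were above 25 RPKM. The part of other cells in the ceh-43 values of D+ was not tested. The C-in libraries held 2.54, 4.26, 1.58, 7.37 and 2.24 RPKM and the C- libraries 137, 137, 175, 225 and 2.31. In C-out it was at 131, 309, 0.99, 6.50 and 381 RPKM, above the limit in 3 libraries of which 1 is C-out 1. Without that library the median of ceh-43 in C-out was 158 RPKM, with 2 of 4 libraries above the limit.

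ceh-16, the engrailed gene of the worm with known roles in the epidermal seam, was on in D- (0 to 168 RPKM, median 95.4) and in C- (185, 135, 198, 155 and 207). In MS- it ranged from 0 to 42.4 RPKM with a median of 11.6. No library of MS+ or D+ or C-in had more than 4.53 RPKM, and in C-out the values were 44.2, 0, 188, 10.7 and 1.07. ceh-5, a relative of the Vax genes, was on in D- (0.91 to 200 RPKM, median 45.1) and C- (47.3, 46.9, 130, 5.51 and 0), and in MS- it ranged from 0 to 106 with a median of 3.03. It had 0 reads in all 7 MS+ libraries against 394 reads in MS-, which puts it at least 98.6-fold lower in MS+ (3 reads over the group as the floor, for counting error only and not for the spread between embryos). Of these reads 168 came from MS- 5, and the bound was 67.8-fold without it, while 2 of the 7 MS- libraries had 0 or 1 read. ceh-16 shares 6.18% of its exon bases with polk-1 and ceh-5 12.2% with ocrl-1, both on the opposite strand. The partner genes were above 25 RPKM in 34 and 11 libraries, and the strand rule of the counting is not given in the sources used here.

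ceh-32, of the SINE class and a relative of Six3 and Six6 with a known role in the morphogenesis of the head, gave the clearest division between dissected lineages and rests. It was at 0.73 to 3.88 RPKM in MS+ (median 1.23) and at 70.8 to 234 in MS- (median 162). In D+ it was at 1.04 to 5.06 RPKM (median 1.35) and in D- at 4.47 to 315 (median 156), where the lowest value is that of embryo 8 and the next lowest was 53.6. The C-in libraries held 0.97, 0.47, 3.62, 7.51 and 0.57 RPKM, the C-out libraries 181, 2.71, 2.64, 4.97 and 1.98, and the C- libraries 303, 70.5, 166, 261 and 144. The other SINE gene, ceh-33, had 1 read in all.

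The comparison of MS cells with the rest of the same embryos asks which of these genes differ between the MS lineage and all others. ceh-32 and ceh-43 fell in MS+, the former by 6.10 on the log2 scale (SE 0.97, adjusted p = 0.00246) and the latter by 6.22 (SE 1.03, adjusted p = 0.00264), in the quasi-likelihood test of edgeR, with p-values adjusted over 3730 genes by Benjamini and Hochberg. These are 2 of the 11 ceh genes tested, while 0.349% of all genes tested were called and 0.295% called lower. Both were lower in MS+ in 7 of 7 embryos and their groups did not overlap, which held for 1.99% of all genes above 25 RPKM in at least 3 libraries. Both had 0 MS+ libraries above 25 RPKM and passed the filter through MS- alone, so a lower level in MS+ follows from the filter, and nothing is read from the share of ceh genes called. The other 9 tested genes had adjusted p-values above the threshold, among them ceh-36 (2.19, SE 1.21, adjusted p = 0.691) and ceh-40 (1.22, SE 0.91, adjusted p = 0.780). Both calls were lost without embryo 5 (adjusted p = 0.126 and 0.128), where edgeR called 0 of 3736 genes, and with DESeq2 size factors in place of the TMM scaling (adjusted p = 0.0800 and 0.0810). They were kept with the embryo as a block, with DESeq2 and with limma.

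Under the TMM scaling the log2 difference had a median of 0.33 over the 3730 genes and of 0.41 over the 11 ceh genes. In the other comparisons the median over all genes was 0.53 (D), 0.21 (C-in against C-out), 0.65 (C-in against C-) and 0.18 (C-out against C-). On log2(RPKM + 25), which was used for the exact permutation test of single genes and understates changes of low genes, the median difference over all 6042 eligible genes was -0.51 and over the 15 eligible ceh genes -0.56, so that genes as a whole were lower in MS+ on this scale. By this test 4 ceh genes (ceh-5, ceh-16, ceh-32 and ceh-43) were lower in MS+ at a two-sided exact permutation p under 0.05, or 26.7% of the 15 eligible, beside 20.0% of all eligible genes. All 4 had 0 MS+ libraries above the limit and were eligible through MS- alone, so their direction follows from the filter. For ceh-32 and ceh-43 the p of 0.000583 is the smallest that 7 against 7 libraries can give, with an adjusted p over all eligible genes of 0.0293. For ceh-5 (-0.96) and ceh-16 (-0.72) the permutation p was 0.00466 and the adjusted p 0.0685.

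In the D dissections the same question gave 0 calls among the 4 ceh genes that passed the filter (ceh-20, ceh-38, ceh-40 and ceh-43), where edgeR called 0.197% of 3039 genes at the adjusted threshold, and 209 at an unadjusted p under 0.05, while DESeq2 called 512 genes and none of these 4. The adjusted p-values of the 4 were between 0.794 and 0.925. Without embryo 8, 6 ceh genes passed the filter and edgeR called 103 of 3317 genes, with ceh-27 (-5.33, SE 1.13, adjusted p = 0.00767) and ceh-32 (-6.30, SE 1.11, adjusted p = 0.00515) among them. ceh-27 and ceh-32 had 0 D+ libraries above 25 RPKM and passed this filter through D- alone. Their lower level in D+ thus follows from the filter, and nothing is read from the number of ceh genes called. These 2 genes were also called with all 7 embryos under edgeR's own expression filter, with adjusted p-values of 0.0462 and 0.0365.

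By the exact permutation test, 9 of 15 eligible ceh genes were lower in D+ at p under 0.05 (60%, beside 19.2% of 5587 eligible genes) and 0 were higher. All of them but ceh-40 had 0 D+ libraries above 25 RPKM and were eligible through D- alone, so the direction of these 8 follows from the filter, and nothing is read from the share. By exact permutation, they were ceh-27 (-2.92, p = 0.00233), ceh-32 (-2.39, p = 0.00117), ceh-37 (-1.34, p = 0.00350), ceh-36 (-1.83, p = 0.00583), ceh-44 (-0.63, p = 0.00641), ceh-5 (-1.37, p = 0.00874), ceh-45 (-1.56, p = 0.00991), ceh-16 (-1.59, p = 0.0122) and ceh-40 (-1.74, p = 0.0192). The adjusted p over all eligible genes was between 0.0561 and 0.155 for these 9, so none passed it. With D+ and D- paired by embryo, ceh-5 and ceh-40 had p = 0.0625 in the exact permutation test and the other 7 stayed under the threshold, while ceh-39, lower in D+ in 6 embryos and higher in 0, passed it when paired (p = 0.0312) and not when unpaired (-0.67, exact permutation p = 0.139). Without embryo 1, 4 or 8, ceh-40 had a permutation p of 0.0606, and the other 8 stayed under the threshold whichever embryo was left out. The median difference over the 15 genes was -1.37, against -0.55 over all eligible genes.

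**Figure D4:**
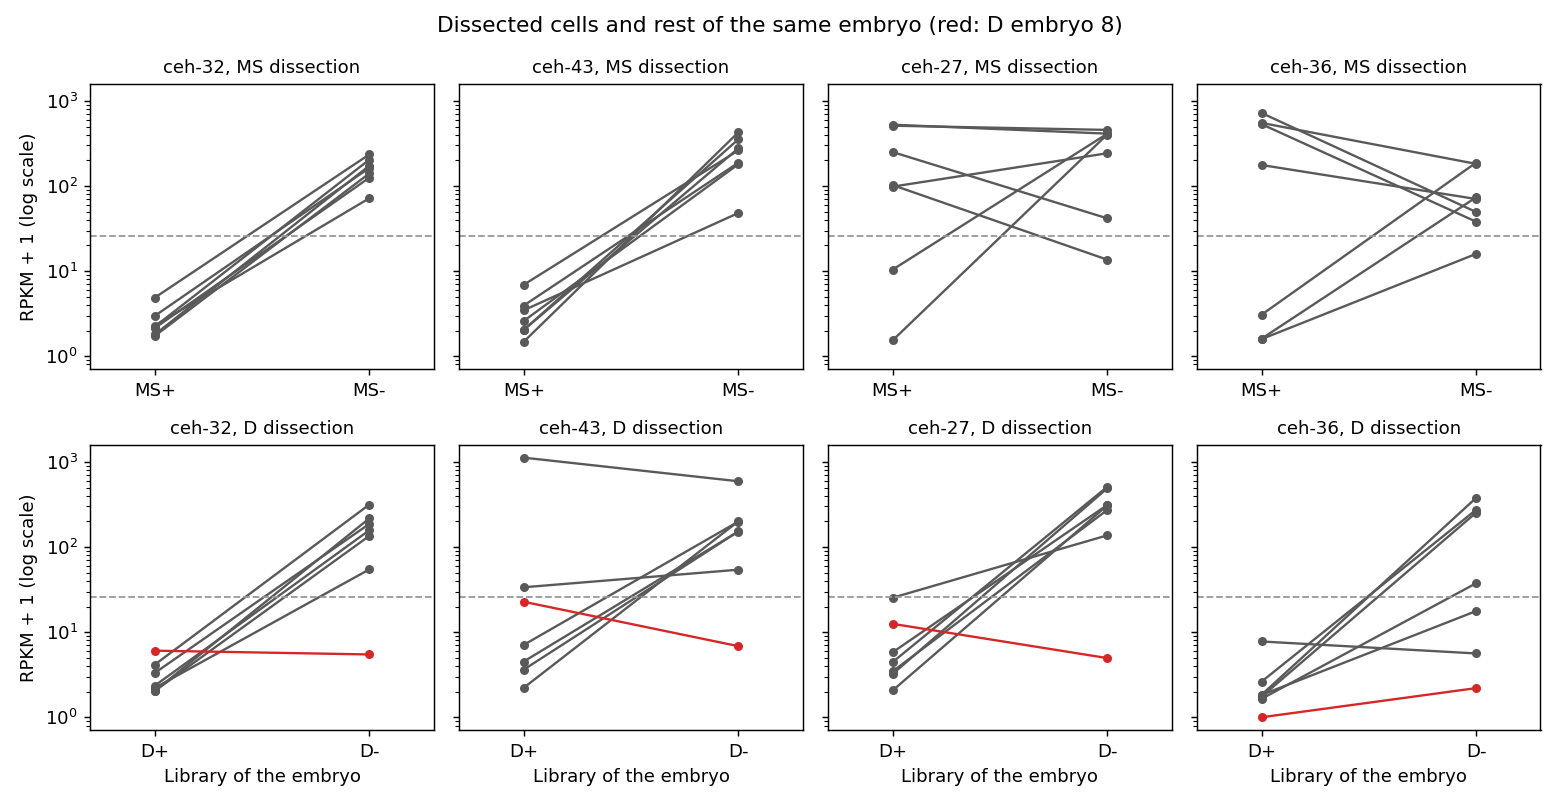
Lines join the dissected library and the rest of the same embryo for ceh-32, ceh-43, ceh-27 and ceh-36 in the MS (top) and D (bottom) dissections, on a log scale of RPKM + 1 with the 25 RPKM limit dashed. All MS lines of ceh-32 and ceh-43 run from below to above the limit, those of ceh-27 and ceh-36 rise in some embryos and fall in others, and D embryo 8 (red) stays below the limit in all 4 genes.

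Whether MS and D cells differed from their rests in the same way was tested as a difference of differences, a comparison added after the data had been seen. For ceh-36 the MS difference lay 8.05 above the D difference on the log2 scale (SE 1.94, adjusted p = 0.0290 by edgeR), and for ceh-43 it lay at -6.61 (SE 1.71, adjusted p = 0.0431). These are 2 of 14 ceh genes tested, while 1.06% of 5304 genes were called. ceh-36 had 0 D+ libraries above 25 RPKM and ceh-43 had 0 MS+ libraries above it. Each passed the filter through the other groups, so nothing is read from the number called. ceh-37 (5.42, SE 1.80, adjusted p = 0.120), ceh-27 (4.72, SE 1.47, adjusted p = 0.0986) and ceh-41 (5.95, SE 2.07, adjusted p = 0.139) did not pass. The ceh-43 value rests in part on D+ 6, whose level of 1122 RPKM is the highest of the gene in any library, and which also held the high pax-3, nob-1 and cog-1 given above. Both calls stood without embryo 8 (adjusted p = 0.0262 and 0.0411) while neither was made by limma (adjusted p between 0.756 and 0.892), and DESeq2 called ceh-36 and ceh-37 (4.67, SE 1.53, adjusted p = 0.0363) but not ceh-43 (adjusted p = 0.0810).

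In the C dissections C-in was compared with C-out, that is, Cxp cells with Cxa cells of the same embryos. Here 2 ceh genes passed the filter, ceh-20 (-0.30, SE 0.85, adjusted p = 0.905) and ceh-38 (0.17, SE 1.16, adjusted p = 0.954), and 0 were called by edgeR, which called 8.33% of 2208 genes. At an unadjusted p under 0.05 edgeR still called neither, and DESeq2 called 378 genes but none of the ceh genes. By the exact permutation test 0 of 5 eligible ceh genes had a p under 0.05, against 15.1% of 3932 eligible genes. The largest difference among them was that of ceh-43 (-1.97, exact permutation p = 0.0873), with ceh-43 lower in C-in in 3 of 5 embryos. Without C-out 1 edgeR again called 0 of these 2 genes, and ceh-43 had a difference of -1.85 with the same exact permutation p of 0.0873. With no filter on low values edgeR called 1142 of 12205 genes, among them 2 of 29 ceh genes, ceh-21 (4.84, SE 1.69, adjusted p = 0.0470) and ceh-43 (-5.65, SE 1.74, adjusted p = 0.0224).

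Against the rest of the embryo, ceh-16 (-6.31, SE 1.77, adjusted p = 0.0432), ceh-32 (-5.65, SE 1.55, adjusted p = 0.0403) and ceh-37 (-5.84, SE 1.64, adjusted p = 0.0423) fell in C-in by edgeR's quasi-likelihood test, 3 of 6 ceh genes tested, while 4.45% of 3572 genes were called and 3.64% called lower. Each was lower in C-in in 5 of 5 embryos without overlap of the groups, as held for 12.2% of all eligible genes. All 3 had 0 C-in libraries above 25 RPKM and passed the filter through C- alone, so that nothing is read from the share of ceh genes called. Without C-out 1, which shares the estimate of the spread, the same 3 were called (adjusted p between 0.0206 and 0.0417). Without embryo 2, 4, 5 or 6 edgeR called none of the 3 (adjusted p between 0.0682 and 0.113), while it called 0 of all genes without embryo 4, 5 or 6 (3599, 3485 and 3844 tested), and the log2 differences of the 3 stayed between -6.95 and -5.48 whichever embryo was left out. Without embryo 1 ceh-16 was lost (adjusted p = 0.0739), and with the embryo as a block the adjusted p-values were 0.0550, 0.0526 and 0.0550. With DESeq2 size factors all 3 stood at an adjusted p of 0.0937, and limma called all 3. By the exact permutation test 8 of 14 eligible ceh genes were lower in C-in (57.1%, beside 26% of 5184 eligible genes), namely ceh-5, ceh-8, ceh-16, ceh-27, ceh-32, ceh-36, ceh-37 and ceh-43, with p-values from 0.00794, the smallest that 5 against 5 libraries can give, to 0.0476, and adjusted p-values over all eligible genes from 0.0653 to 0.166. All 8 had 0 C-in libraries above the limit and were eligible through C- alone, so their direction follows from the filter. Paired by embryo, 5 pairs cannot give a p below 0.0625. With 4 embryos, ceh-16, ceh-32 and ceh-37 kept the smallest permutation p of that design (0.0286) whichever embryo was left out, and the other 5 genes reached exact permutation p-values between 0.0571 and 0.143. ceh-8 had 0 reads in C-in against 652 in C-, which puts it at least 111-fold lower (3 reads over the group as the floor, for counting error only and not for the spread between embryos). Of these reads 385 came from C- 2, without which the bound was 60.1-fold, and 2 of the 5 C- libraries had 0 or 1 read.

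C-out against C- gave 0 edgeR calls among 8 ceh genes tested and 0.0% among 4079 genes, with 304 genes at an unadjusted p under 0.05, 1 of them ceh-37 (-3.10, SE 1.44, adjusted p = 0.650), while DESeq2 called 384 genes and none of the 8. By the exact permutation test ceh-16 (-1.97, p = 0.0317), ceh-32 (-2.23, p = 0.0317) and ceh-37 (-1.57, p = 0.0159) were lower in C-out, 3 of 16 eligible ceh genes or 18.8%, beside 14.9% of 5582 eligible genes. Without C-out 1 edgeR again called 0 ceh genes, the exact permutation p-values were 0.0317, 0.00794 and 0.0159, and ceh-27 (-2.64, p = 0.0317) and ceh-36 (-1.98, p = 0.0476) also had one under 0.05, while leaving out whole embryos, which leaves 4 against 4, gave exact permutation p-values up to 0.114. In the other C-out libraries ceh-27, ceh-32, ceh-36 and ceh-37 were all below 25 RPKM, so without C-out 1 their direction follows from the filter. The share of all genes past 0.05 without C-out 1 was not measured. C-in and C-out were both set against the same C- libraries, so these comparisons are not independent of each other. The median difference on log2(RPKM + 25) was -1.14 over the eligible ceh genes and -0.69 over all eligible genes in C-in against C-, and -0.92 and -0.57 in C-out against C-.

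Over the 4 dissected lineages together, edgeR's F test found unequal levels for ceh-36 (adjusted p = 0.00731), ceh-37 (adjusted p = 0.0156), ceh-43 (adjusted p = 0.0165) and ceh-27 (adjusted p = 0.0330), 4 of the 10 ceh genes tested, beside 8.11% of 4586 genes. Apart from C-out 1, the dissected libraries with ceh-27, ceh-36 or ceh-37 above 25 RPKM were all of MS+. These genes thus passed the filter mainly through the group where they were high, and nothing is read from the share called. The medians put ceh-36 at 175 RPKM in MS+, against 0.83 in D+, 1.84 in C-in and 5.34 in C-out, and ceh-37 at 64.4 against 0.83, 0.48 and 0.78. ceh-27 stood at 101 RPKM in MS+ against 3.46, 2.57 and 4.40, and ceh-43 at 131 RPKM in C-out against 1.60 in MS+, 6.09 in D+ and 2.54 in C-in. Between the low groups the values overlapped for each gene. ceh-20 (adjusted p = 0.781), ceh-38 (adjusted p = 0.725), ceh-21 (adjusted p = 0.513), ceh-40 (adjusted p = 0.235), ceh-44 (adjusted p = 0.219) and ceh-41 (adjusted p = 0.0715) did not pass. These calls rest on a few libraries. ceh-27 was lost without MS+ 5, MS+ 6, C-in 4 or C-in 6 (adjusted p between 0.0501 and 0.0813). ceh-36 no longer passed the 25 RPKM filter without MS+ 3, 5, 6 or 7, ceh-37 without MS+ 1, 3, 4 or 6, and ceh-43 without D+ 4 or D+ 6. Without D+ 8 the same 4 genes were called. They were also called without C-out 1, but the smallest group then had 4 libraries. The filter thus asked for 4 libraries above 25 RPKM in place of 5, and 4866 genes were tested. ceh-36, ceh-37 and ceh-43 passed only this lower filter there, so that fit does not show whether their calls hold under the filter of 5. With DESeq2 size factors ceh-27 was lost (adjusted p = 0.0632), and DESeq2 called the 4 genes and ceh-41 (adjusted p = 0.0316). limma called 0 of the 10 (adjusted p between 0.103 and 0.296 for these 4 genes).

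The 3 rest groups share most of their cells, and edgeR's F test over MS-, D- and C-, added after the data had been seen, called 0 of 15 ceh genes tested, beside 0.380% of 6049 genes. Without D- 8 it again called 0 of the 15. At an unadjusted p under 0.05 were 477 genes, among them ceh-44, ceh-40 and ceh-16, with adjusted p-values of 0.351, 0.569 and 0.619 in edgeR. Their medians were 78.9, 22.2 and 22.6 RPKM (ceh-44), 89.0, 217 and 34.6 RPKM (ceh-40) and 11.6, 95.4 and 185 RPKM (ceh-16) in MS-, D- and C-. DESeq2 called ceh-44 (adjusted p = 0.0140), and limma on log2(RPKM + 25) called ceh-16 and ceh-44 (adjusted p = 0.0486 for both).

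The remaining 27 genes were on in no group. In 13 of them at least 1 library was above 25 RPKM, with between 1 and 10 such libraries for each gene. They include ceh-6 (a POU gene, up to 166 RPKM in D- 3), ceh-10 (PRD-like, up to 148 in D- 2), the BarH-type neighbours ceh-30 (up to 148 in D- 4) and ceh-31 (up to 246 in C-out 1), ceh-53 (PRD-like, up to 190 in C- 4) and the divergent gene ceh-100 (up to 163 in D+ 8). Of the 13 genes 6 were above the limit in C-out 1 and in no other dissected-lineage library, and 3 were above it in rests only. The neighbours ceh-30 and ceh-31 lie 3.1 kb apart on chromosome X, and all 3 libraries with ceh-30 above 25 RPKM had ceh-31 above it, which was the case in 4 libraries.

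The other 14 were above 25 RPKM in no library. Their highest level in any library was 13.1 RPKM and their highest read number 6, and 13 of them had 10 reads or fewer over all 43 libraries together. In 9 genes no library had more than 1 read, and ceh-28, an NK-type gene known from the pharyngeal M4 neuron, had 0 reads throughout. ceh-14 (the LIM-class gene), ceh-17, ceh-18, ceh-19 and ceh-23 were also in this set, and most of these are known from differentiated neurons. At this depth a level up to the floor given above could not be told from 0.

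Other homeobox genes, a list of 42 that holds the 4 excepted ceh names, were looked at beside these, and 40 were found by name. The rests had 16 (MS-), 14 (D-) and 10 (C-) of them on, and the dissected lineages 4 (MS+), 2 (D+), 3 (C-in) and 5 (C-out). In the same order, 14.9%, 12.8% and 14.8% of all listed genes were on in the rests. In the lineages these shares were 6.98%, 5.15%, 5.62% and 7.68%. By edgeR 0 of 10 tested genes were called in MS, 0 of 4 in D, 0 of 3 between C-in and C-out, 0 of 8 between C-out and C-, and 2 of 5 between C-in and C-, where pal-1, the caudal gene (-5.38, SE 1.47, adjusted p = 0.0403), and vab-3, a Pax6 relative (-5.52, SE 1.52, adjusted p = 0.0409), fell. Both had at most 6.4 RPKM in C-in and passed the filter through C- alone. Their lower level thus follows from the filter, and nothing is read from the count. Of all genes tested, edgeR called 0.349% in MS, 0.197% in D and 8.33% between C-in and C-out. It called 0.0% between C-out and C- and 4.45% between C-in and C-. Across the 4 dissected lineages 4 of 9 were called, the Hox genes lin-39 (adjusted p = 0.00176) and nob-1 (adjusted p = 0.0312), the SINE gene unc-39 (adjusted p = 0.000211) and ceh-51 (adjusted p = 0.000231). There 8.11% of all genes tested were called, and nothing is read from the share. The MS+ cells were picked by the reporter of ceh-51, so its call follows from the choice of cells and nothing is read from it. unc-39 had medians of 1120 RPKM in MS+, 8.89 in D+, 3.58 in C-in and 6.11 in C-out, and lin-39 of 0.41, 1.73, 115 and 103 RPKM. In the difference between the MS and D comparisons 3 of 18 tested passed by edgeR. They were ceh-34 (13.26, SE 2.34), unc-39 (6.92, SE 1.39) and nsy-7 (6.64, SE 1.58) on the log2 scale. ceh-34 had at most 1.03 RPKM in MS- and 4.46 RPKM in D+. It passed the filter through MS+ and D- alone, and the size of its value rests on counts near 0. nsy-7 had at most 3.14 RPKM in D+. Nothing is read from the number called. ceh-34 was also the 1 of 19 tested that differed among the rests (adjusted p = 0.0186). Over all genes tested, 1.06% were called in the MS and D difference and 0.380% among the rests.

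By chromosome, 14 of the 39 matched ceh genes lie on X, 8 on I, 6 on III, 5 on V, 3 on II and 3 on IV. The genes that were on numbered 5, 3, 3, 2, 1 and 0 in the same order, and the X-linked ones are ceh-21, ceh-36, ceh-37, ceh-40 and ceh-41. The files follow the ce10 build and the annotation used for names is WBcel235, so no positions are given.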

How the data were processed

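Polyadenylated RNA of dissected cells was made into cDNA with the SMARTer Ultra Low kit and libraries with Nextera XT, without RNA extraction, and 8 libraries of embryos labelled rejected were left out. The authors deposited the count of reads, the length and the RPKM of each gene for each library. The deposited counts are whole reads per gene, not molecules, and the deposited RPKM divide them by the listed length and by a library total. The submitters' processing notes name ce10 and bedtools. The aligner, the counting program and the strand rule were not given in the sources used here. Coverage tracks were not used.

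Groups came from the sample labels. Counts were compared with edgeR 4.0.16 in R 4.3.3 (quasi-likelihood test, TMM scaling, Benjamini-Hochberg adjustment over all genes tested, threshold 0.05), using genes whose RPKM exceeded 25 in a number of libraries no lower than the size of the smaller group, and the 3 C groups shared 1 fit. Genes above 25 RPKM in at least 3 libraries of a comparison were also compared 1 by 1, by a two-sided exact permutation test on the mean of log2(RPKM + 25). Alternatives were DESeq2 1.42.0, its size factors, limma 3.58.1 on log2(RPKM + 25) and log2(RPKM + 1), other filters, the embryo as a block, and leaving out embryos or libraries. The tests were tried on simulated data first. The genes described in full are those on in a group, past the adjusted threshold or without overlap of groups. The genes, lists and rules were chosen with earlier results of these data known, and support nothing by themselves.

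The labels give a replicate number, and libraries of 1 dissection with the same number were taken to come from 1 embryo. This pairing was used in the paired permutation tests and with the embryo as a block, while the main tests were unpaired. Deviations from the group means correlated across genes at 0.0332 (MS), 0.0243 (D) and 0.0291 (C) on average for libraries of the same embryo, while libraries of different embryos gave -0.00547, -0.00419 and -0.00719. Of all pairs of libraries, 0 had identical counts. Nothing states how embryos of a group were spread over cultures, so p-values measure the spread between embryos.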

Additional observations from a re-analysis of the deposited data

Results flagged for a closer look

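In 77 checks of a ceh gene within a group, 1 library lay far from the others of its group in 16, where chance gives about 1 in 20 for values with a normal spread, and the rate for these skewed levels was not measured. The library labelled C-out replicate 1 accounts for 8 of them, with ceh-5 at 28.13 RPKM, ceh-21 at 38.11, ceh-27 at 430.2, ceh-32 at 180.8, ceh-36 at 150, ceh-37 at 33.29, ceh-44 at 85.7 and ceh-45 at 135.4 RPKM. Single dissected libraries also held ceh-40 at 674.9 RPKM (C-in 6), ceh-41 at 122.4 RPKM (C-in 5) and ceh-43 at 1122 RPKM (D+ 6). Among the rests, ceh-8 stood at 122.8 RPKM in D- 2 and ceh-21 at 64.89 RPKM in C- 5, while ceh-20 in MS- 2 (5.21 RPKM), ceh-27 in D- 8 (3.96 RPKM) and ceh-43 in C- 6 (2.31 RPKM) lay below all others of their groups.

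Between the MS and the D dissections, the lineage-against-rest difference was unequal for ceh-36, by 8.052 on the log2 scale, and for ceh-43, by -6.607, with adjusted p-values of 0.0290 and 0.0431 in edgeR. ceh-36 was at 6.77 RPKM or less in D+ and ceh-43 at 5.92 RPKM or less in MS+. Each passed the filter through the other groups. The part of cell number, strain and dissection in these differences was not tested.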

How the results depend on the processing

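With DESeq2 size factors the number of ceh genes called became 0 in MS, 0 in C-in against C-, 3 over the 4 lineages and 1 in the difference between MS and D. Without a filter on low values it became 4 in MS, 2 in C-in against C-out, 0 in C-in against C-, 14 over the 4 lineages and 6 over the rests, where edgeR called 347 of 20435, 1142 of 12205, 77 of 14383, 4009 of 19898 and 1973 of 24051 genes in the same order. With edgeR's own filter it became 2 in D and 0 in C-in against C-, where the embryo as a block also gave 0. The block changed no other edgeR count, and of 13 permutation calls in MS and D, 11 stayed past the threshold when paired, while the 11 in C could not, since 5 pairs give no p below 0.0625. limma called 0 over the 4 lineages and 0 in the difference between MS and D on both scales, and 2 over the rests on log2(RPKM + 25), where DESeq2 called 1. In MS, limma on log2(RPKM + 1) put ceh-36 at -0.60 and ceh-40 at -0.16, opposite to edgeR. Genes on in MS+ became 9 with means, 8 above 10 RPKM and 9 with a median of at least 10 reads, and means gave 6 in D+, 7 in C-in and 10 in C-out, while the read rule gave 23 in C-. Leaving out 1 library or embryo gave 0 to 2 called genes in MS and in D. It gave 0 to 3 in C-in against C- and 1 to 5 over the 4 lineages. Genes on then numbered 5 to 8 in MS+, 10 to 12 in MS-, 2 to 4 in C-in, 3 to 4 in C-out and 11 to 15 in C-. The causes were not tested. Counting error limits low genes, since 3 reads correspond to 0.982 CPM in the deepest library.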
